A study of Mus musculus with 18 samples.

Results

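Gelsolin (Gsn), zyxin (Zyx), the beta thymosins Tmsb10 and Tmsb4x, the cytoplasmic actins Actb and Actg1, the tubulins Tubb2b, Tubb6 and Tuba1a, and vimentin (Vim) are the 10 genes described here, out of 55401 genes in the tables. They are genes of the actin and tubulin cytoskeleton, and they were chosen on measured values of these same pools, because several of them were higher in the knock-out. The RNA came from thick ascending limbs, the nephron segment that reabsorbs salt without water, dissected by hand from adult male mice, labelled C57BL/6J and of a mostly C57BL/6 background per the study's methods, as pools of medullary (MTAL) or cortical (CTAL) tubules of the kidney, each pool from a different animal. Wild-type (WT) mice carried floxed Cldn10 alleles (Cldn10 fl/fl) without Cre, and conditional knock-out (cKO) mice carried the same floxed alleles plus Cre under the promoter of Ksp-cadherin, so that recombination was not limited to this segment but reached the distal nephron. There were 5 pools of WT CTAL, 5 of cKO CTAL, 5 of WT MTAL and 3 of cKO MTAL, named here by the pool number of their labels. Both genotypes thus shared the floxed alleles, and the cKO outer medulla held calcium deposits, which made the cKO MTAL hard to dissect.

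Actin monomers assemble into filaments that are turned over by proteins which hold monomers in reserve, cut filaments or cap their ends, and in kidney tubules a belt of such filaments lies under the tight junctions. Alpha and beta tubulins pair to form microtubules, and each kind of cell uses its own mixture of isotypes. Vimentin forms intermediate filaments of mesenchymal cells and is widely used as a marker of tubule cells that have lost part of their differentiation.

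The stretches of 250 bases before the annotated start of 4 of the genes show what the searched motifs look like in a gene that was higher in cKO pools of both segments (Gsn), in a pair whose mean CPM was higher in cKO MTAL and not in cKO CTAL, though the mean TPM was slightly higher in the latter too (Zyx, Tmsb4x), and in the only gene (Actg1) of the 7 searched whose window held a CArG box, which is the site bound by serum response factor. They are the plus-strand stretches chr2:35256109-35256358 and chr6:42349578-42349827 and the minus-strand stretches chrX:167209219-167209468 and chr11:120348496-120348745 of RefSeq on build GRCm38.p6, written from 5′ to 3′ of the gene. Capitals mark a CArG box or a GGGCGG of either strand, which appears as CCGCCC where it lies on the other strand.
Gsn: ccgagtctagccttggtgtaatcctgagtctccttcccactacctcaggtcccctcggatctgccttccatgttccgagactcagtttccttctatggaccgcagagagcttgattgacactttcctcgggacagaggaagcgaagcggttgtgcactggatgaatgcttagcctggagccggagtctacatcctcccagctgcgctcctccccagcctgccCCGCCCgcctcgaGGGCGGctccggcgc
Zyx: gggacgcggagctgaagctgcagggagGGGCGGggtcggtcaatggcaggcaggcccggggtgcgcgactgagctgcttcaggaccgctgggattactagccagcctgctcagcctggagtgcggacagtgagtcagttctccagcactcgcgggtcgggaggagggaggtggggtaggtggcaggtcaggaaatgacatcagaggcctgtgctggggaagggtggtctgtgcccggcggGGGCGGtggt
Tmsb4x: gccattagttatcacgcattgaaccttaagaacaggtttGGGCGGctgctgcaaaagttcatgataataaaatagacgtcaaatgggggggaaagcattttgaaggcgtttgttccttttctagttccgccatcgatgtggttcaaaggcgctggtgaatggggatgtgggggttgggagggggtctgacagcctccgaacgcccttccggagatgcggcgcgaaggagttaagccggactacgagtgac
Actg1: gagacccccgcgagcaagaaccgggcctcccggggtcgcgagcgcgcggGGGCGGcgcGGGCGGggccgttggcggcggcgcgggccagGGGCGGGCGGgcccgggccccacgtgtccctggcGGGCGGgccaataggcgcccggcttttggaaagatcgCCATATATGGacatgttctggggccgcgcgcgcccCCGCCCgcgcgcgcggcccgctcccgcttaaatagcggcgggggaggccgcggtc

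RefSeq windows, each running from 250 bases before to 50 bases after a start, were at hand for 7 of the 10 genes, with 11 windows in all. Actb, Tubb2b and Tubb6 had no window at hand and were not searched for any motif. The Actg1 window held the CArG box from position -90 relative to the start, and the box was found in 1.63% of all 32851 windows of the genome. GGGCGG, the site of Sp factors, was in windows of 6 of the 7 genes and in 35.7% of all windows, and in Actg1 2 of its matches overlapped. The Vim window held TATAAA from position -32, a match found in 13.6% of all windows, and no window of the 7 genes held GGAATG, the site of TEAD factors, which was in 14.7% of all windows. These matches describe letters in a window and do not show binding.

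Total counts per pool ran from 10824299 to 62339939, and every one of the 10 genes passed the filter on low counts in each comparison. Cldn10, the targeted gene and a tight junction claudin, was at 384 to 579 CPM (counts scaled to library totals adjusted by TMM factors) in WT CTAL, 156 to 185 in cKO CTAL, 653 to 810 in WT MTAL and 151 to 295 in cKO MTAL, so it was reduced but not lost. The study kept only cKO pools with lower Cldn10 than WT and left out a cKO CTAL pool with a WT-like level, so this gap partly reflects that choice. The title and the genotype label of WT CTAL replicate 1 name the knock-out while its pool name reads WT. This pool was used as WT, and the values that depend on this are given below. Its Cldn10 level was 446 CPM, which alone does not settle its genotype. Summed levels of 8 thick ascending limb markers, Slc12a1 and Umod among them, were 51229 to 62702 CPM in WT MTAL and 68715 to 81159 CPM in cKO MTAL, against 454 to 639 and 278 to 427 CPM for 12 endothelial markers, and no marker of either list was at 0 throughout a group. In such pools, more cells of a type and more RNA per cell cannot be told apart.

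**Figure D1:**
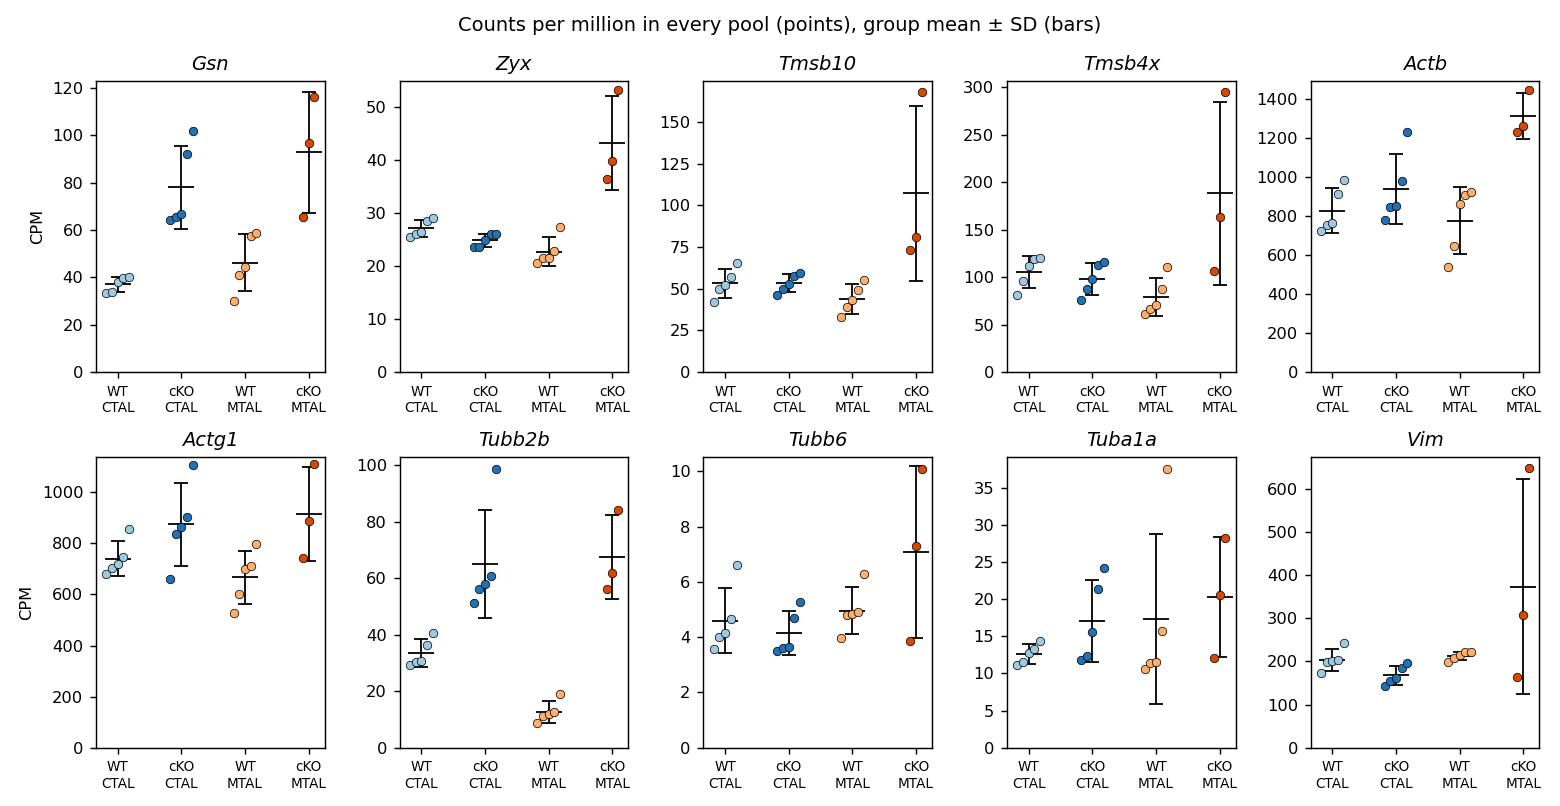
CPM (linear axis from 0) of the 10 genes in every pool, 1 point per pool, with the group mean and SD as bars, for WT CTAL, cKO CTAL, WT MTAL and cKO MTAL. Tubb2b in WT MTAL lies between 8.91 and 19.1 CPM, below every pool of the other groups, and a single cKO MTAL pool reaches 648 CPM for Vim.

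On the length-corrected TPM scale, a count divided by transcript length and scaled to the pool's total, which allows genes to be compared, the actins led. In WT MTAL Actb averaged 556 ± 147 TPM and Actg1 460 ± 86.9 TPM (SD, n = 5), followed by Tmsb4x at 161 ± 61.0, Vim at 149 ± 15.8 and Tmsb10 at 123 ± 30.0 TPM. Gsn averaged 28.0 ± 10.2 TPM, Tuba1a 11.7 ± 7.63, Zyx 11.6 ± 1.22, Tubb2b 7.39 ± 2.74 and Tubb6 3.37 ± 0.47 TPM. The spreads between pools overlapped for Actb and Actg1, and for Tmsb4x, Vim and Tmsb10 among themselves. Within each of the 5 WT MTAL pools, however, Actb was above Actg1, at 51.4 to 57.5% of their summed TPM. Tmsb4x was also above Tmsb10 in each of them, though in replicate 17 only at 116.5 against 116.3 TPM.

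The knock-out was first compared with WT in the MTAL. All 10 genes had a positive log2 fold change there, with a median of 0.88 against 0.0012 over the 12060 genes tested. At an adjusted p below 0.05 and a change of at least 2-fold, 4 of the 10 were past both thresholds in the higher direction, Gsn, Tmsb10, Tmsb4x and Tubb2b, where 2.69% of all genes tested were. The cKO MTAL pools lay entirely above the WT MTAL pools for 5 genes, Gsn, Zyx, Tmsb10, Actb and Tubb2b, as they did for 6.79% of all genes tested. These genes were selected on this very contrast, so the values are a description and no test is attached to them.

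Gelsolin severs and caps actin filaments in the presence of calcium. In WT MTAL, Gsn was at 58.7, 40.9, 29.8, 44.2 and 57.4 CPM in replicates 11, 13, 15, 17 and 19, and in cKO MTAL at 65.5, 116 and 96.8 CPM in replicates 16, 18 and 20. All 3 cKO pools were above all WT pools, though replicate 16 only by a little. The log2 fold change was 1.02 (SE 0.21), and it lay between 0.82 and 1.22 when each pool was left out in turn. In TPM the groups overlapped, with 30.9 TPM in cKO MTAL replicate 16 against 43.9 and 31.4 TPM in WT MTAL replicates 11 and 19. Counts per TPM of Gsn, set against the other genes of the pool, differed between the genotypes in MTAL without overlap. They were at -0.57 on the log2 scale in WT MTAL replicate 11 and at -0.15 to -0.07 in the other WT MTAL pools. In cKO MTAL they were at 0.04 to 0.24, and in the CTAL pools at -0.05 to 0.21. Mean TPM of Gsn was 28.0 in WT MTAL and 50.1 in cKO MTAL, and limma on either TPM scale did not call it. Gsn was past the thresholds in 10 of 17 fits of this comparison.

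The beta thymosins bind actin monomers and keep them out of filaments. Tmsb10 was at 49.0, 55.5, 38.8, 42.9 and 32.9 CPM in the WT MTAL pools in the same order, and at 168, 72.9 and 80.8 CPM in cKO MTAL. Tmsb4x was at 87.5, 110, 70.7, 66.5 and 61.1 CPM in WT MTAL, and at 295, 106 and 163 CPM in cKO MTAL. Replicate 16 stood far above the other cKO MTAL pools for both genes, and replicate 18 was below the highest WT pool for Tmsb4x. The log2 fold changes were 1.30 (SE 0.23) for Tmsb10 and 1.25 (SE 0.25) for Tmsb4x. Without replicate 16 they were 0.82 and 0.78, both below 2-fold, and the number of the 10 genes past the thresholds was 2, Gsn and Tubb2b. The share of Tmsb10 in the summed TPM of the beta thymosins was 41.7 ± 3.28% in WT MTAL and 42.1 ± 5.54% in cKO MTAL (SD, n = 5 and 3), with overlapping pools.

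Zyxin is a scaffold of focal adhesions that moves to actin filaments under strain. Zyx was at 27.3, 21.5, 21.5, 20.5 and 22.8 CPM in WT MTAL, and at 53.2, 36.4 and 39.8 CPM in cKO MTAL. The groups were well apart, and the log2 fold change of 0.93 (SE 0.18) stayed just under 2-fold. It was past both thresholds in 4 of the 17 fits, among them the one with library totals in place of TMM factors.

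Actb and Actg1 encode the actins of non-muscle cells. Actb was at 865, 926, 647, 539 and 910 CPM in WT MTAL, and at 1232, 1448 and 1263 CPM in cKO MTAL. The lowest cKO pool was thus above the highest WT pool, at a log2 fold change of 0.77 (SE 0.16). Actg1 was at 529 to 796 CPM in the WT pools of the medulla and at 743 to 1110 CPM in the cKO pools, with overlap and a log2 fold change of 0.46 (SE 0.15). Actb made up 54.4 ± 2.62% of the TPM of both cytoplasmic actins in WT MTAL and 59.2 ± 3.62% in cKO MTAL (SD, n = 5 and 3).

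Tubb2b, a beta tubulin best known from developing neurons, had the largest difference of the set. It was at 12.5, 19.1, 8.91, 11.3 and 11.8 CPM in WT MTAL, and at 56.1, 61.8 and 84.1 CPM in cKO MTAL. Every cKO pool was above every WT pool by a wide margin, and the log2 fold change was 2.40 (SE 0.22), a 5.29-fold difference. It was past the thresholds in all 17 fits, between 2.22 and 2.60 on the log2 scale.

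The other tubulins and vimentin overlapped between genotypes in the MTAL. Tubb6 was at 3.96 to 6.30 CPM in WT MTAL, while the cKO MTAL pools had 10.1, 3.85 and 7.28 CPM, giving a log2 fold change of 0.52 (SE 0.38). Tuba1a was at 10.6 to 37.6 CPM in WT MTAL, against 12.1 to 28.2 CPM in cKO MTAL, giving a log2 fold change of 0.24 (SE 0.39). The WT value of 37.6 CPM came from replicate 11 alone; without it the log2 fold change was 0.73, and without cKO MTAL replicate 18 it was -0.07. Vim was at 221, 215, 221, 198 and 207 CPM in WT MTAL, and at 648, 164 and 307 CPM in cKO MTAL. Its WT pools were tight and its cKO pools lay on both sides of them, so that the log2 fold change of 0.82 (SE 0.27) was 0.16 without replicate 16 and 1.18 without replicate 18.

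**Figure D2:**
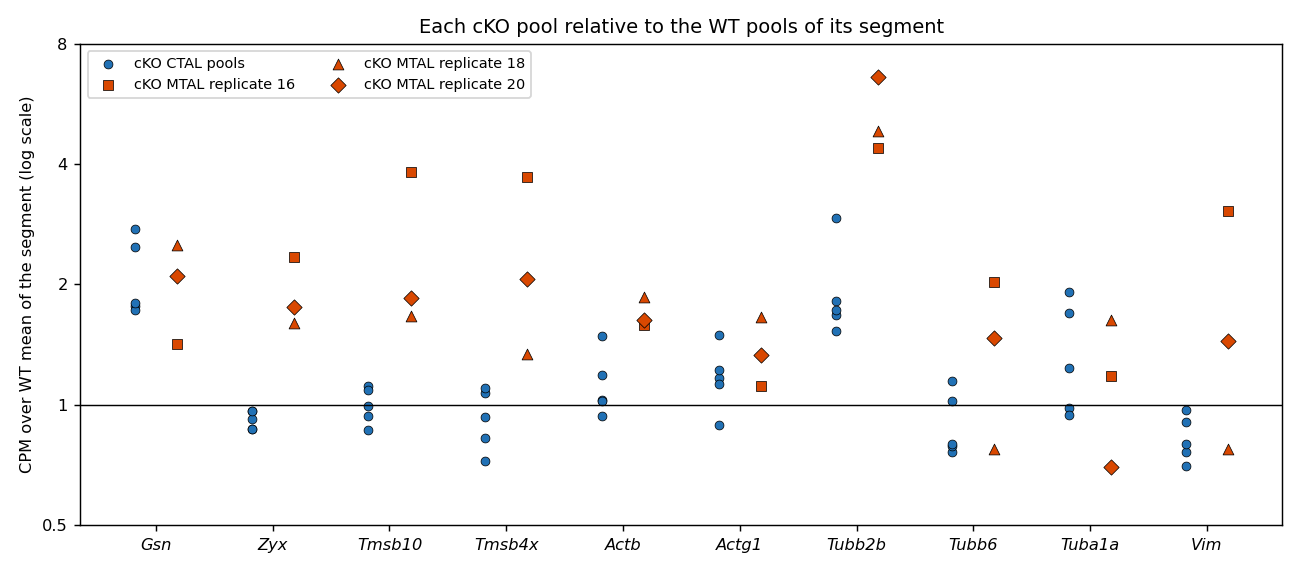
CPM of each cKO pool divided by the mean of the WT pools of the same segment, for the 10 genes on a logarithmic axis, with cKO CTAL pools as circles and the 3 cKO MTAL pools by replicate. Replicate 16 is highest for Zyx, Tmsb10, Tmsb4x, Tubb6 and Vim (3.83 for Tmsb10), replicate 18 for Gsn, Actb, Actg1 and Tuba1a, and replicate 20 for Tubb2b at 6.60.

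The cKO MTAL pools did not order the genes alike, as the ratios to the WT mean show. Replicate 16 was the highest of the 3 for 5 genes, Zyx, Tmsb10, Tmsb4x, Tubb6 and Vim, with ratios of 2.34, 3.83, 3.72, 2.03 and 3.05. Replicate 18 was the highest for 4 genes, Gsn, Actb, Actg1 and Tuba1a, with ratios of 2.52, 1.86, 1.66 and 1.63. Replicate 18 had 11052 CPM summed over 12 tubular injury markers, against 3767 in replicate 16, 3437 in replicate 20 and 2406 to 2831 in WT MTAL. In replicate 16 the summed markers of endothelium (333 CPM) and of fibroblasts and pericytes (45.4 CPM) were not above the WT MTAL range, those of immune cells were at 220 CPM against 138 to 199, and those of smooth muscle at 48.7 CPM against 15 to 19. Replicate 20 had 1004 CPM of 7 principal cell markers, against 71 to 331 in WT MTAL, and 249 CPM of 6 intercalated cell markers, against 20 to 110. Over the WT and cKO MTAL groups, 0 of 12 endothelial, 10 of 12 immune, 4 of 10 fibroblast and pericyte, 6 of 6 smooth muscle, 7 of 7 principal cell, 6 of 6 intercalated cell, 7 of 8 proximal tubule, 7 of 8 urothelial and 10 of 12 injury markers had the higher mean in cKO. The part of these markers in the results was not tested.

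In the same comparison in the CTAL, 5 of the 10 genes had a positive log2 fold change, with a median of 0.08 against 0.0026 over the 11702 genes tested. Past both thresholds was 1 gene, Gsn, where 0.256% of all genes tested were called higher, and the cKO pools lay entirely above the WT pools for 2 genes, Gsn and Tubb2b, as for 1.85% of all genes tested. This contrast too was in view when the genes were chosen, and its values are a description. Every group stands in a pair of the 4 comparisons, which therefore share pools and are not independent of each other.

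Gsn was at 40.3, 39.7, 38.2, 33.4 and 33.7 CPM in WT CTAL replicates 1, 3, 8, 10 and 22, and at 102, 65.4, 64.1, 66.7 and 92.1 CPM in cKO CTAL replicates 2, 4, 7, 9 and 21. The groups were clearly apart, at a log2 fold change of 1.07 (SE 0.13), close to its value in the MTAL. It was past the thresholds in 18 of 20 fits, and was under 2-fold without cKO CTAL replicate 2 (0.95) and with WT CTAL replicate 1 counted as cKO (0.98). Tubb2b was at 30.8, 30.3, 40.7, 29.3 and 36.2 CPM in WT CTAL, and at 51.2, 56.1, 60.9, 57.9 and 98.4 CPM in cKO CTAL. The lowest cKO pool was above the highest WT pool, and the log2 fold change of 0.94 (SE 0.16) was just under 2-fold; without cKO CTAL replicate 21, which holds the value of 98.4 CPM, it was 0.74.

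The remaining 8 genes overlapped between genotypes in the CTAL. Tmsb10 ran from 41.9 to 65.2 CPM in WT CTAL and from 46.1 to 59.4 CPM in cKO CTAL, with a log2 fold change of -0.02 (SE 0.11). Zyx ran from 25.4 to 29.0 CPM and from 23.6 to 26.1 CPM, with a log2 fold change of -0.13 (SE 0.09). Vim was slightly lower in cKO, at 143 to 197 CPM against 174 to 243 CPM, with a log2 fold change of -0.29 (SE 0.10). The log2 fold changes of Tmsb4x, Actb, Actg1, Tubb6 and Tuba1a were -0.12, 0.17, 0.23, -0.16 and 0.44, with SEs of 0.13, 0.13, 0.12, 0.22 and 0.19.

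**Figure D3:**
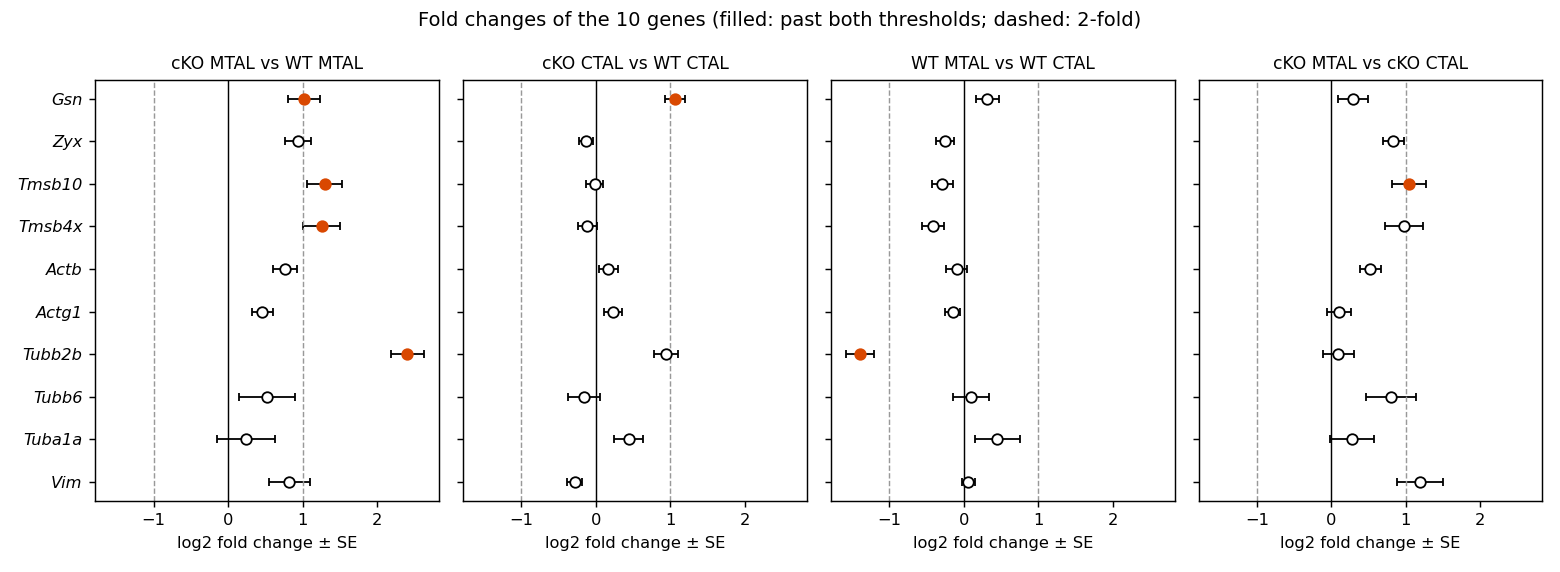
Log2 fold change and SE of the 10 genes in each of the 4 comparisons, from edgeR fits over all genes, with the first group over the second. Filled points are past both thresholds and dashed lines mark 2-fold; Tubb2b is at 2.40 in cKO MTAL over WT MTAL and at -1.39 in WT MTAL over WT CTAL.

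The difference between these genotype effects, MTAL minus CTAL, was taken from a fit of all 18 pools and is given without a test, since both effects were in view when the genes were chosen. It was 1.44 (SE 0.28) on the log2 scale for Tubb2b, 1.35 (SE 0.31) for Tmsb4x, 1.29 (SE 0.28) for Tmsb10, 1.09 (SE 0.32) for Vim and 1.05 (SE 0.18) for Zyx. It was 0.66 (SE 0.41) for Tubb6, 0.58 (SE 0.22) for Actb and 0.21 (SE 0.20) for Actg1, and near 0 for Gsn at -0.06 (SE 0.27) and Tuba1a at -0.21 (SE 0.46). For Zyx all 3 cKO MTAL pools were above the WT MTAL mean and all 5 cKO CTAL pools below the WT CTAL mean in CPM. In TPM this did not hold in the CTAL, with 15.4 ± 1.55 TPM in cKO CTAL and 15.1 ± 0.70 TPM in WT CTAL (SD, n = 5 each).

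WT MTAL was compared with WT CTAL to describe the segments without the knock-out. The same WT MTAL pools stand in the contrasts on which the genes were chosen, and a gene that is low in them was more likely to be chosen, so these values too are a description with no test. Among the 11650 genes tested, 0.652% were called higher and 1.67% lower in MTAL, and of the 10 genes none was called higher and 1, Tubb2b, was called lower. Tubb2b averaged 12.7 ± 3.83 CPM in WT MTAL and 33.5 ± 4.85 CPM in WT CTAL (SD, n = 5 each). All WT MTAL pools were below all WT CTAL pools, as was the case for 4.31% of all genes tested. The log2 fold change was -1.39 (SE 0.18), and it lay between -1.59 and -1.29 in all 20 fits of this comparison.

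The other 9 genes were not called between the WT segments in any of the 20 fits. Of those lower in WT MTAL, Tmsb4x came next, with 79.2 ± 20.01 CPM in WT MTAL and 105 ± 16.7 CPM in WT CTAL on average. Its log2 fold change was -0.41 (SE 0.15), and its pools overlapped. The log2 fold changes of the others ran from -0.28 for Tmsb10 to 0.45 for Tuba1a, with SEs of 0.09 to 0.30, and their pools overlapped. Tuba1a was at -0.04 without WT MTAL replicate 11.

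In the knock-out the segments were set side by side in the same way, with cKO pools that were in view when the genes were chosen. All 10 genes had a positive log2 fold change of MTAL over CTAL, with a median of 0.66 against 0.027 over the 12044 genes tested. Not all signs held with a pool left out. Without cKO MTAL replicate 18 Actg1 was at -0.05 and Tuba1a at -0.03, and without cKO MTAL replicate 20 Tubb2b was at -0.11. Past both thresholds was Tmsb10 alone, at 1.04 (SE 0.23), where 0.623% of all genes tested were called higher. Pools did not overlap for 2 genes, Zyx at 0.83 (SE 0.14) and Tmsb10, as for 4.15% of all genes tested. The call of Tmsb10 held in 8 of 17 fits, and its log2 fold change was 0.54 without cKO MTAL replicate 16. Vim was at 1.19 (SE 0.31) with overlapping pools. Tubb2b averaged 67.3 ± 14.8 CPM in cKO MTAL and 64.9 ± 19.1 CPM in cKO CTAL (SD, n = 3 and 5), a log2 fold change of 0.09 (SE 0.21).

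Ordered by group, Tubb2b thus went from WT MTAL through WT CTAL to cKO CTAL and cKO MTAL, the last 2 of which did not differ beyond their spread. Gsn went from WT CTAL (37.1 ± 3.29 CPM) through WT MTAL (46.2 ± 12.1) and cKO CTAL (78.0 ± 17.7) to cKO MTAL (92.9 ± 25.7), and neighbours of the same genotype did not differ beyond their spread. All 10 genes had their highest mean in cKO MTAL. For Actg1 (914 ± 185 CPM) and Tuba1a (20.3 ± 8.05 CPM) that mean was within the spread of cKO CTAL, at 874 ± 161 and 17.1 ± 5.50 CPM. For Zyx, Tmsb10, Tmsb4x, Actb and Tubb6 the pools of the other 3 groups overlapped. For Vim the cKO CTAL pools (143 to 197 CPM) lay just below the WT MTAL pools (198 to 221 CPM).

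The mixture of beta tubulins was followed as each isotype's share of their summed TPM. Tubb2b made up 5.67 ± 1.35% in WT MTAL, 12.7 ± 1.68% in WT CTAL, 20.1 ± 3.90% in cKO CTAL and 18.02 ± 3.42% in cKO MTAL (SD, n = 5, 5, 5 and 3). Between the WT segments its share differed by -7.03 percentage points, with no overlap of pools. The shares of Tubb6, Tuba1a, Actb and Tmsb10 in their families differed by 0.631, 1.09, 2.14 and 1.45 points between the WT segments, with overlapping pools. Beside Tubb2b, Tubb2a made up 16.7 ± 1.16% in WT MTAL and 23.1 ± 1.44% in cKO MTAL, and Tubb4b 42.5 ± 3.17% and 28.3 ± 0.69%. The summed TPM of beta tubulins was 128 ± 19.9 in WT MTAL and 242 ± 28.6 in cKO MTAL, and that of alpha tubulins 343 ± 64.0 and 406 ± 31.3. Tuba1a was 3.46 ± 2.24% of alpha tubulins in WT MTAL and 3.88 ± 1.93% in cKO MTAL, where Tuba1b, Tuba1c and Tuba4a made up most of the rest.

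**Figure D4:**
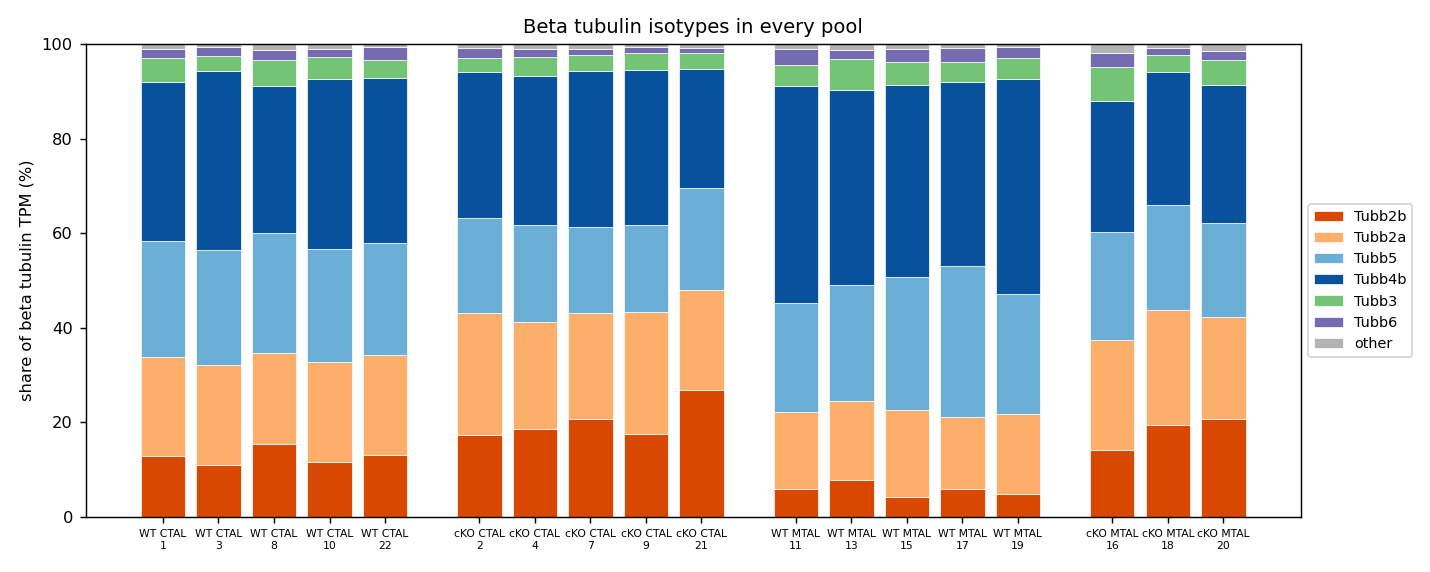
Share of each beta tubulin isotype in the summed beta tubulin TPM (percent, stacked from 0) in every pool, labelled by group and replicate. The Tubb2b share is 4.11 to 7.71% in WT MTAL, 11 to 15.3% in WT CTAL, 17.3 to 26.7% in cKO CTAL and 14.1 to 20.6% in cKO MTAL.

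Part of the sequence of some of these genes cannot be told from that of close relatives. Of all 75-base stretches of their annotated transcripts, 68.3% of Tuba1a, 33.5% of Actg1, 30.2% of Tubb2b, 19.3% of Tmsb10 and 1.58% of Actb also occur in transcripts of other genes, and 0 of those of Gsn, Zyx, Tmsb4x, Tubb6 and Vim. For Tubb2b the relative is Tubb2a, with 27.5% of the stretches, so the split of reads between this pair depends on the authors' counting, and values of Tuba1a are the least certain. Tubb2a itself rose in cKO MTAL from 28.2 to 66.6 CPM (log2 fold change 1.24, SE 0.16, adjusted p = 0.000196 by edgeR's quasi-likelihood test). It passed the test but stayed under 2-fold in cKO CTAL (0.45, SE 0.09, adjusted p = 0.0279) and between the WT segments (-0.57, SE 0.12, adjusted p = 0.00714), both by the same edgeR test.

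Other genes of the cytoskeleton were read from 8 lists with 310 genes, of which 238 were tested in the MTAL comparison. These lists were chosen with earlier results of these data known, so counts over them are a description. Called, at an adjusted p below 0.05 and at least 2-fold, were 13 in the higher and 1 in the lower direction, where 2.69% and 1.04% of all genes tested were. An adjusted p below 0.05 at any fold was reached by 39 of the 238, against 845 of all 12060 genes tested. Log2 fold changes were positive for 142 of the 238, with a median of 0.10. The largest rises among those with pools apart were Krt19 and Fmnl1, a keratin of simple epithelia and a formin that elongates actin filaments, and Csrp1, a LIM protein of actin bundles. Krt19 rose from 3.42 ± 4.07 to 15.7 ± 2.79 CPM (log2 fold change 2.17, SE 0.58, edgeR adjusted p = 0.0339). Fmnl1 rose from 14.7 ± 3.75 to 41.6 ± 19.7 CPM (1.51, SE 0.27, edgeR adjusted p = 0.00343). Csrp1 rose from 31.3 ± 5.52 to 88.0 ± 28.5 CPM (1.5, SE 0.20, edgeR adjusted p = 0.000275). In WT MTAL, replicate 13 alone was at 10.7 CPM of Krt19, and the others were at 1.30 to 1.88 CPM; Krt19 was called in 10 of the 16 fits that gave it an adjusted p, and not without cKO MTAL replicate 16 or 20 or WT MTAL replicate 11, 15, 17 or 19, at log2 fold changes of 1.97 to 2.13. Fmnl1 was at 64.3 CPM in cKO MTAL replicate 16 against 27.9 and 32.7 in the other cKO MTAL pools, and it was called in 15 of 17 fits. Csrp1 was called in all 17. The single gene called lower was Krt80, a keratin, which went from 16.2 ± 8.23 to 6.55 ± 1.03 CPM (-1.29, SE 0.36, edgeR adjusted p = 0.0399). WT MTAL replicate 11 alone was at 30.3 CPM of Krt80, and without it the log2 fold change was -0.94 and not called. Krt80 was called in 10 of 17 fits, and also not without any 1 of the cKO MTAL pools, without WT MTAL replicate 15 or with limma on TPM.

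By list, 2 of 3 tested actins were called higher, the muscle actins Acta1 and Acta2, at log2 fold changes of 1.20 (SE 0.33) and 1.22 (SE 0.27). The other, Actc1, went from a mean of 2.02 CPM in WT MTAL to 5.47 CPM in cKO MTAL and was not called. Acta1 was called in 9 of 17 fits, Coro1a in 8, Evpl in 12, Cotl1 in 13, Flna in 15 and Acta2 in 16. Without cKO MTAL replicate 16 the log2 fold changes were 0.80 for Acta1, 0.83 for Acta2, 0.42 for Coro1a and 1.02 for Cotl1, and none of these 4 was called. Smooth muscle markers summed to 15 to 19 CPM in WT MTAL and 30 to 49 CPM in cKO MTAL. Acta2 is itself 1 of these 6 markers, at 8.84 to 13.9 CPM in WT MTAL and 16.8 to 38.5 CPM in cKO MTAL. The sum thus largely restates Acta2, and the part of these markers in the rises was not tested. Of 33 monomer, severing and capping genes 2 were called higher, Coro1a and Cotl1, and of 36 nucleation genes 2, Fmnl1 and the Arp2/3 subunit gene Arpc1b. Of 53 bundling, tropomyosin and myosin genes 2 were called higher, Flna and Tagln2, which encode the actin crosslinkers filamin A and transgelin-2. Of 17 intermediate filament genes 3 were called higher, Krt18, Krt19 and Evpl, and 1 lower. Of 36 focal adhesion genes 1 was called higher, Csrp1, of 10 tubulins 1, Tubb2a, and of 50 microtubule associated genes 0. Log2 fold changes were positive for 8 of the 10 tubulins and for 22 of the 50 microtubule associated genes, whose median was -0.05. Names beyond Krt19, Fmnl1, Csrp1, Krt80 and the actin and tubulin families were taken up after their values were seen. Without cKO MTAL replicate 16 the 14 calls were 9, without WT MTAL replicate 11 also 9, and in a fit of all pools 23.

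**Figure D5:**
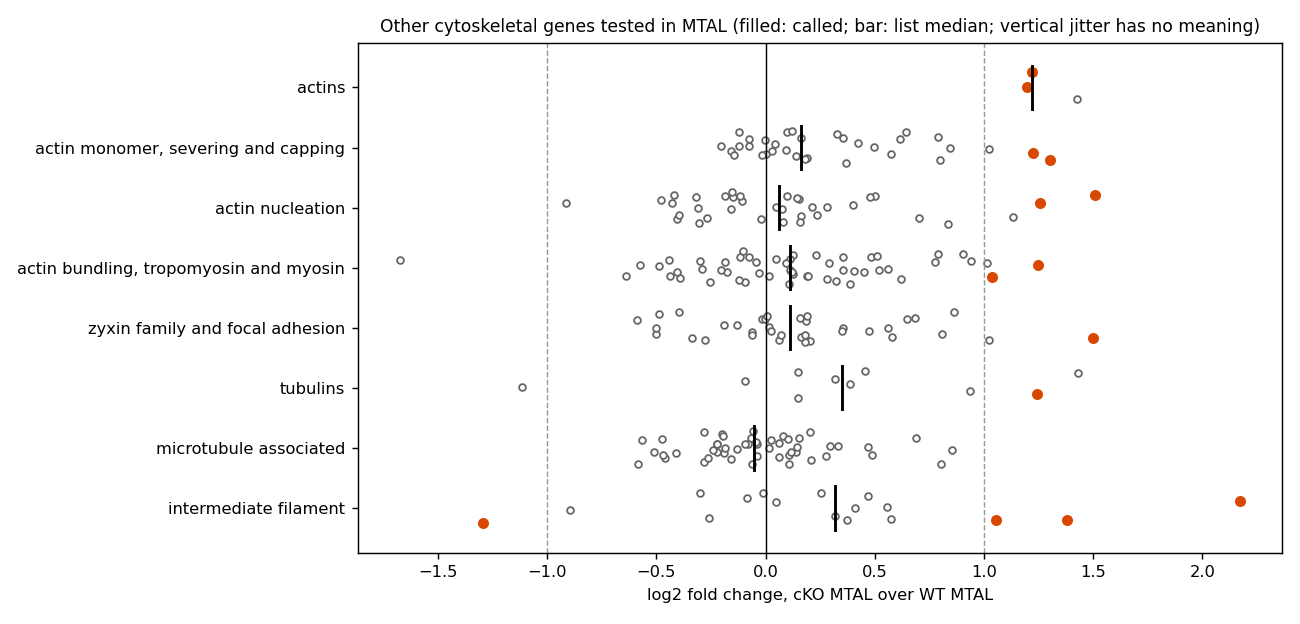
Log2 fold changes of cKO MTAL over WT MTAL for the 238 other cytoskeletal genes tested, 1 point per gene in 8 lists, with calls filled, list medians as bars, and 2-fold as dashed lines. The 13 genes called higher reach 2.17 for Krt19, and the microtubule associated genes hold no call.

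In the CTAL, 0 of 234 tested genes of these lists were called by edgeR in either direction, where 0.256% and 0.214% of all genes tested were called higher and lower. The likelihood ratio tests of edgeR and DESeq2 called 0 and limma on log2(TPM + 1) called 1. An unadjusted p below 0.05 was reached by 40 of them (17.1%, against 11.8% of all genes tested), and an adjusted p below 0.05 by 4 (against 143 of all 11702 genes), all at less than 2-fold. Csrp1 was among these 4, at a log2 fold change of 0.996 (SE 0.17), a 1.99-fold difference, and it was called in 11 of 20 fits. Between the WT segments 0 of 236 were called, 68 had an unadjusted p below 0.05 (28.8%, against 19.1% of all genes tested) and 26 an adjusted p below 0.05 (against 800 of all 11650 genes), and the likelihood ratio tests of edgeR and DESeq2 called 2 each. In the cKO segments 2 of 243 were called higher in MTAL, where 0.623% and 0.316% of all genes tested were called higher and lower. They were the small GTPase gene Rhob (1.19, SE 0.20, edgeR adjusted p = 0.00963) and Csrp2, a relative of Csrp1 (1.01, SE 0.20, edgeR adjusted p = 0.027). Csrp2 was called in 5 and Rhob in 14 of 17 fits. The difference of the genotype effects between segments was called for 0.23% of all 12586 genes tested and for 1 gene of the lists, Fmnl1, at 1.55 (SE 0.29, adjusted p = 0.0214 by edgeR's quasi-likelihood test). Without cKO MTAL replicate 16 it was 1.10 and not called, nor was it without cKO CTAL replicate 9 (1.55) or with WT CTAL replicate 1 counted as cKO (1.44).

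The genes whose pattern over the 18 pools was most like that of each of the 10 were named by Pearson's r of log2(CPM + 1) among 12162 genes, as a description over pools that share genotype and segment. For Gsn, Samd5 and Muc1 were among them, with r of 0.93 and 0.90 and Spearman's rho of 0.95 and 0.88. For Tubb2b they were Ddr1, Gm20518 and Arl4c (r of 0.96, 0.95 and 0.95, rho of 0.94, 0.87 and 0.93). Vim went with S100a4, Vcan and Gm11675 (r of 0.98, 0.97 and 0.97, rho of 0.92, 0.91 and 0.88), and Tmsb4x with Fcna, Gm16385 and H3f3a-ps1 (r of 0.97 each, rho of 0.92, 0.89 and 0.93). Zyx went with Prelid1, Rnf19b and S100a10 (r of 0.92, 0.92 and 0.90), Tmsb10 with Gm5643, Rps16-ps3 and H2-Q2 (0.96, 0.95 and 0.94), and Actb with Sfn, Serinc2 and Actn4 (0.89, 0.85 and 0.85). Actg1 went with Scd2, Uggt1 and Calr (0.91, 0.88 and 0.86), Tubb6 with Lrp1, Gm17235 and Gm8730 (0.93, 0.92 and 0.91), and Tuba1a with Krtcap2, Dhx29 and Nme1 (0.83, 0.80 and 0.80). Among the 10 genes themselves, r ran from -0.19 for Actg1 and Vim to 0.95 for Tmsb10 and Tmsb4x over the 45 pairs.

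In the mm10 assembly Gsn lies at chr2:35256380-35307892, Vim at chr2:13573927-13582826, Zyx at chr6:42349630-42360213 and Tmsb10 at chr6:72957347-72958748. Tubb2b lies at chr13:34126748-34130466, Tubb6 at chr18:67390717-67402749, Tuba1a at chr15:98949837-98953703, Actb at chr5:142903115-142906754, Actg1 at chr11:120345690-120348542 and Tmsb4x at chrX:167207093-167209315. Genes annotated on the same stretch overlap Gsn (Gm43128), Actg1 (Gm23419 and Mir6935) and Tuba1a (Gm49450) on the same strand, and Zyx (Gm44284 and Epha1) on the other strand.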

How the data were processed

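RNA of 18 microdissected pools was sequenced as poly-A paired-end libraries. Per the labels, reads went through FastQC, Trimmomatic, DRAGEN and Picard, and the genome was mm10. The authors deposited estimated counts and TPM per gene; how strands and reads with several matches were counted is not given in the sources used here. Pools that the study left out were not analysed here. Estimated counts were rounded and fitted per comparison with edgeR 4.0.16 (quasi-likelihood, TMM, R 4.3.3) on genes that reached 3 CPM in 5 or more pools, or in 3 or more where cKO MTAL took part or effects of both segments were compared. A call needed a Benjamini-Hochberg adjusted p below 0.05 and a 2-fold difference (1 on the log2 scale). Since each pool came from 1 animal, p-values measure the spread between pools, in which animal, dissection and library cannot be told apart. Alternatives used DESeq2 1.42.0, limma 3.58.1 on log2(TPM + 1) and log2(TPM + 0.1), other scalings and filters, and left out each pool. Scripts were tested on simulated data. The 10 genes and all lists were chosen with earlier results of these data known. Other cytoskeletal genes were named where they were called with pools that did not overlap, by the largest change. Total counts were 10824299 to 62339939 per pool, and no pair of pools agreed within sampling noise. For each of the 10 genes, the 3 genes with the highest Pearson's r over the pools were named, except 1 that is not reported here.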

Additional observations from a re-analysis of the deposited data

Results flagged for a closer look

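In 63 sets of 5 pools searched for a pool far from the others, 7 were found, and chance flags about 1 in 20. Tubb2b was at 98.4 CPM in cKO CTAL replicate 21, against 51.2 to 60.9 in the other cKO CTAL pools. WT MTAL replicate 11 stood apart in 4 sets. It had 37.6 CPM of Tuba1a against 10.6 to 15.7, a Tuba1a share of 7.43% of alpha tubulin TPM against 2.15 to 2.97%, 30.3 CPM of Krt80 against 11.1 to 16.6, and 147 CPM of Rhob against 35.5 to 64.6. WT MTAL replicate 13 had 10.7 CPM of Krt19 against 1.30 to 1.88, and WT CTAL replicate 22 had 21.4 CPM of Krt80 against 11.2 to 13.4.

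The genotype effect on Fmnl1 differed between the segments by 1.55 on the log2 scale (adjusted p = 0.0214 by edgeR's quasi-likelihood test), and by 1.10, no longer called, without cKO MTAL replicate 16, where Fmnl1 was at 64.3 CPM against 27.9 and 32.7. For Zyx, every cKO MTAL pool was above and every cKO CTAL pool below the WT mean of its segment in CPM, but not in TPM for the CTAL (15.4 against 15.1 TPM on average), a difference of the effects of 1.05 on the log2 scale, which was not tested because Zyx was chosen on these values.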

How the results depend on the processing

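No paired analysis was possible because the groups share no replicate numbers. Between the WT segments, Vim was at -0.0352 with limma on log2(TPM + 1) and -0.0354 on log2(TPM + 0.1), against the sign of its reported log2 fold change. With single pools left out, Tuba1a ran from -0.0381 without WT MTAL replicate 11 to 0.585 and Actb from -0.163 to 0.0126 without WT MTAL replicate 17, so both changed sign. None of these 3 genes was called between the WT segments under any setting. In the CTAL, Zyx was at 0.02 on both TPM scales, against -0.13 as reported. Of the 10 genes, 1 was called in the CTAL, 2 with limma on either TPM scale and 0 with WT CTAL replicate 1 counted as cKO. In the cKO segments 1 was called, 2 by edgeR's likelihood ratio test or in a fit of all 18 pools and 0 by limma on either scale. Of the other cytoskeletal genes, the 14 called in the MTAL were 23 in a fit of all 18 pools. The 0 called in the CTAL were 1 with library totals, no filter, limma on either scale or a fit of all pools. The 0 called between the WT segments were 2 by the likelihood ratio tests of edgeR and DESeq2 and 1 with library totals, no filter or limma on log2(TPM + 0.1). The 2 called in the cKO segments were 6 by either likelihood ratio test or with no filter, 4 in a fit of all pools and 1 with DESeq2 size factors, library totals or limma. The 1 gene whose effects differed between segments became 5 by edgeR's likelihood ratio test and 2 with library totals or no filter.

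When 1 pool at a time was dropped, the calls among the 10 genes ran from 2 to 5 in the MTAL, 1 to 2 in the CTAL, 1 to 1 between the WT segments and 0 to 3 in the cKO segments. The calls among other cytoskeletal genes ran from 9 to 17, 0 to 1, 0 to 3 and 1 to 12, and for the difference of effects from 0 to 13, the highest without cKO MTAL replicate 18. The share differences between WT segments ran from -7.53 to -6.37 points for Tubb2b, 0.445 to 0.832 for Tubb6, 0.10 to 1.42 for Tuba1a, 1.21 to 2.88 for Actb and 0.344 to 2.34 for Tmsb10. The causes were not tested. With 3 cKO MTAL pools, a single pool decides several calls. Tubb6 had as few as 44.5 estimated counts in a pool, and Tuba1a had the largest SEs of the 10 genes in the MTAL and between the WT segments.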
